A study of Mus musculus with 14 samples.

Results

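Far intergenic PRDM16 peaks are the binding sites of the transcription factor PRDM16 that lay farthest from genes in the embryonic mouse ventricle. A peak was taken when its summit lay outside every protein-coding gene of a RefSeq gene table of GRCm38, more than 50000 bp from the nearest one, and when it shared no base with a peak of the Prdm16 knockout. The rule used positions only, and it selected 2641 of 17587 wild-type (WT) peaks (15.02%, 95% Wilson interval 14.5 to 15.6%). Binomial intervals, here and below, cover counting error only, and reads in them are not independent molecules. Chromatin immunoprecipitation with sequencing (ChIP-seq) was carried out at embryonic day E13.5 on C57BL/6 mouse ventricles, with the atria removed and chromatin crosslinked by EGS and formaldehyde. WT tissue, whose genetic manipulation is labelled Mock, gave 2 PRDM16 libraries of whole ventricles, 2 of the left ventricle (LV) and 2 of the right ventricle (RV). The Prdm16 conditional knockout (Prdm16cKO) gave 1 PRDM16 library of whole ventricles, and each of the 7 PRDM16 libraries has an input. A whole-ventricle sample pooled 3 hearts and an LV or RV sample pooled 10 to 12 ventricles, so that a replicate is a pool. The Cre driver of the knockout, and the cells that lose Prdm16 in it, are not given in the sources used here.

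PRDM16 is a zinc-finger protein of the PRDM family that binds DNA and brings coactivators, corepressors and histone-modifying enzymes to its sites. It is best known for setting the identity of brown fat cells, and in the heart it is a factor of the compact myocardium, the dense outer layer of the ventricle wall that surrounds the spongy trabecular layer. Enhancers far from any gene are common around developmental regulators, where a long stretch without protein-coding genes can hold many separate elements that act on a gene at its border. Because such elements can skip the nearest gene, the nearest gene below is a label of position, and the gene on the other side of the stretch is given where it matters.

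The WT and knockout peak lists carry no value per library, so that the fold enrichment over background of a peak is the value that the peak caller of the authors printed for it. No source used here gives the depth of the whole-ventricle libraries. For LV and RV, whole reads per library were worked out from the deposited table. Reads within WT peaks numbered 330443 in LV A and 184244 in LV B, as the libraries are called below, with 281797 in RV A and 267808 in RV B. A median far intergenic peak held 9, 5, 8 and 8 reads in LV A, LV B, RV A and RV B, which limits what can be seen at a single peak. Normalized reads are these reads times the authors' factor of each library, which is 0.744, 1.47, 0.866 and 0.965. ChIP-seq holds no RNA level, so the tissue was not checked by marker genes, and the knockout peak list is the check of the antibody. Peaks that overlap a knockout peak took 19.0 to 30.6% of the reads in WT peaks, and they are not members.

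Sequence was at hand for promoters of annotated genes only, so the letters shown are promoter windows that members overlap and not the peaks themselves. Of the 2641 peaks, 61 overlapped a RefSeq promoter window, which runs from 250 bases before to 50 bases after a gene start. The windows were 68, of 61 genes, and all 61 genes are long noncoding RNAs (lncRNAs). The summit itself lay inside the window for 34 members. The 4 windows below belong to the strongest peak that overlaps a window (E130101E03Rik, between Tbx20 and Herpud2), to the strongest peak next to Fgf9 (Gm33321), to the most GC-rich of the 4 (Gm26901, between Pcmtd1 and Sntg1) and to a window with an AP-1 motif (Gm34948, between Caprin1 and Lmo2). They are given 5′ to 3′ along the gene's strand, from RefSeq on GRCm38.p6, with capitals for matches to any of the 6 motifs described after them.
E130101E03Rik: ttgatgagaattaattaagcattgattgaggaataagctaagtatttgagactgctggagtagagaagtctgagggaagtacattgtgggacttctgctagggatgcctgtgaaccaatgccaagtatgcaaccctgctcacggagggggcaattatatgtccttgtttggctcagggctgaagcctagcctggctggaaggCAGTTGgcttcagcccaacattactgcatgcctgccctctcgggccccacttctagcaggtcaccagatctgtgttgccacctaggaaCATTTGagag
Gm33321: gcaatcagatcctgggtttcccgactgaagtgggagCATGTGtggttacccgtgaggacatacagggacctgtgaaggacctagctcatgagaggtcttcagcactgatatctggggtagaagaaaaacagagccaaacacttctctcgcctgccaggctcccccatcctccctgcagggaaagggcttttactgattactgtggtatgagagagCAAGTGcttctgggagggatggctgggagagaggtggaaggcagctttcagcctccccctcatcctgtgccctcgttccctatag
Gm26901: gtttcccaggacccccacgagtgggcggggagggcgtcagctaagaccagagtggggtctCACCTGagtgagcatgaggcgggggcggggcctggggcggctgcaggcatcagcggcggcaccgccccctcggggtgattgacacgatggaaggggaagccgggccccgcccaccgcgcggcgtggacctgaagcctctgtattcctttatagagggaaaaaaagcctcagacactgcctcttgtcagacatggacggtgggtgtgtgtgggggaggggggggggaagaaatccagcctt
Gm34948: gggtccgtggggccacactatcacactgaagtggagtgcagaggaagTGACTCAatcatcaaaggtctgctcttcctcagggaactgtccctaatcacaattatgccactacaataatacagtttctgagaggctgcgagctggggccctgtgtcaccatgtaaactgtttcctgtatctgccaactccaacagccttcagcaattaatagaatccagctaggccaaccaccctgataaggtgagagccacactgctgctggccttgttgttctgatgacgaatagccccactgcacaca

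E130101E03Rik lies at chr9:24973958-24974257 on the plus strand, and the summit of its peak was 160 bases after the gene start, outside the window. Gm33321 lies at chr14:58300552-58300851 on the plus strand, with a summit 85 bases before the start. Gm26901 lies at chr1:7398047-7398346 on the minus strand, with a summit 14 bases after the start, and Gm34948 at chr2:103896217-103896516 on the minus strand, with a summit 167 bases before it. The peaks had fold enrichments of 17.1, 9.82, 8.19 and 7.33 in that order. GC content was 49.7% for E130101E03Rik, 54.7% for Gm33321, 65.7% for Gm26901 and 50.3% for Gm34948. In Gm34948 the capitals mark an AP-1 match, and in the other windows they mark E-boxes, the short motif of basic helix-loop-helix factors.

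Motifs were searched on both strands in the 68 windows and in all 32851 windows of the table. The GATA motif AGATAA was in 17.6% of the windows at members and in 11.2% of all windows. The E-box CANNTG was in 82.4% against 72.3%, and the AP-1 motif TGANTCA in 5.88% against 7.81%. The TEAD motif GGAATG was in 11.8% against 14.7%, the T-box motif GGTGTGA in 1.47% against 3.98% and the MEF2 motif, given by name only, in 0 against 0.110%. Median GC content was 49.7% at members and 52.7% over all windows. A match is a string of letters and not a binding site, and windows at lncRNA starts stand for 61 of 2641 members only. Windows of a single gene, such as Gm33474, can overlap, so that a match can count more than once. The full set of windows was not limited to lncRNA starts, and these shares carry no test.

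Fold enrichment varied little with distance from genes. The median member lay 139978 bp from the nearest protein-coding gene, and distances ran from 50057 to 2080522 bp. Median fold enrichment was 4.21 (interquartile range 3.56 to 5.41, from 2.01 to 22.4), beside 4.004 over all WT peaks and 3.98 for peaks inside genes without knockout overlap. By distance it was 4.17 for the 967 members up to 100000 bp away, 4.29 for 775 up to 200000 bp, 4.198 for 713 up to 500000 bp and 4.06 for the 186 beyond. A fold enrichment of at least 5 was reached by 830 members (31.4%, against 26.1% of all WT peaks) and of at least 10 by 94 (3.56% against 2.95%). The median width was 306 bp, and the median −log10 q was 7.25.

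**Figure D1:**
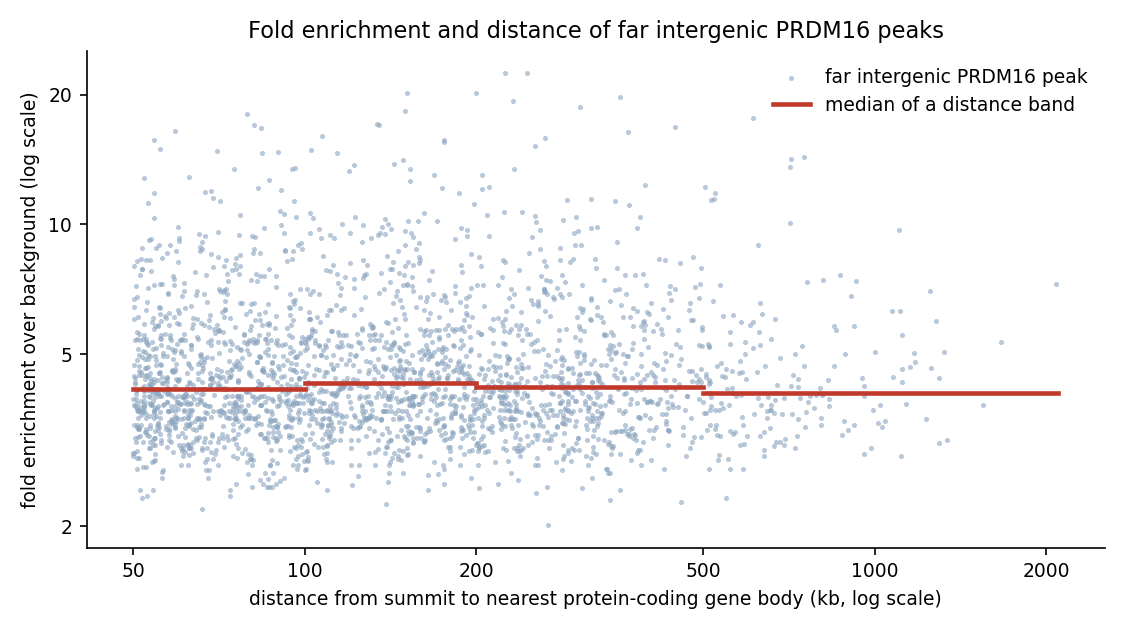
Fold enrichment over background of each of the 2641 far intergenic PRDM16 peaks (vertical, log scale) against the distance of its summit from the nearest protein-coding gene body in kb (horizontal, log scale), with red lines for the median of 4 distance bands. The medians stay between 4.06 and 4.29 from 50 kb to beyond 500 kb.

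In LV and RV the same peaks held slightly fewer reads per length than the average peak. Median normalized reads per kb were 23.3 in LV and 23.7 in RV, against 26.3 and 26.2 over all WT peaks. Fold enrichment in whole ventricles and reads per kb in LV went together only loosely across members (Spearman rho 0.41, n = 2641 peaks of the same libraries), and so did fold enrichment and RV reads (0.42). Over all WT peaks the rho was lower, at 0.253 for LV and 0.272 for RV. Across members, fold enrichment and distance were unrelated by the same measure (0.0091), while fold enrichment and width had a rho of 0.61. Peaks are not replicates, and these values describe these libraries.

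The members lay in a minority of the long gene-free stretches. GRCm38 has 2967 stretches of over 100000 bp between protein-coding genes, and 970 of them (32.7%) held at least 1 member. Median length was 387440 bp for stretches with a member and 186285 bp for those without, and the part of length in this share was not tested. All 2967 stretches add up to 1006 Mb once 50000 bp at each end is set aside, which gives 2.62 members per Mb, against 9.98 peaks per Mb inside genes. Density was highest on chromosome 13 (4.75 per Mb, 213 members) and lowest on chromosomes X (0.526) and Y (0). Among 296 stretches of over 1 Mb, 116 held no member, and the longest of these were between Pcdh20 and Pcdh9, protocadherins, and between Celf4 and Pik3c3.

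Members were most numerous in a small set of stretches. Zfp608 to Gramd3 held 21 members, Rps24 to Zmiz1 20, Csnk1g3 to Zfp608 17, Cd83 to Jarid2 16 and Adgrl2 to Adgrl4 16. Zmiz1 is a PIAS-like coactivator and Jarid2 is a subunit of Polycomb repressive complex 2 that is needed in the developing heart. Gadd45g to Diras2 and Slc4a3 to Epha4 held 15 each, and Prok2 to Rybp, the latter a subunit of Polycomb complex 1, held 14. The densest of the 20 stretches with the most members was Magi3 to Lrig2, with 10 members in 233573 bp, or 74.9 per Mb of its far sequence.

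At the far end, the 5 most remote members lay 2080522 bp from Cdh20, 1666934 bp from Grik2, 1549220 bp from Efnb2, 1338079 bp from Cited2 and 1323321 bp from Gm40892. Cdh20 is a cadherin, Grik2 a glutamate receptor, Efnb2 an ephrin of vessels and Cited2 a coactivator needed for heart development. Their fold enrichments were 7.28, 5.34, 3.82, 3.17 and 5.07. At the near end, the 3 members just past the distance rule belonged to Dlk1 (50057 bp, fold 2.90), Foxp4 (50081 bp, 2.95) and Cpeb2 (50104 bp, 3.95). The 3 peaks just short of it belonged to Col5a1 (49997 bp, fold 3.03), Slc38a2 (49968 bp, 5.86) and Mn1 (49965 bp, 4.43).

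The 15 members of highest fold enrichment were 683 to 1321 bp wide, lay 79098 to 611630 bp from a gene, and 1 of them was inside a noncoding gene. The highest value, 22.4, belonged to chr8:128112487-128113648, which is 245292 bp from Nrp1, a co-receptor for semaphorins and VEGF. Normalized reads there were 115 and 65.9 in LV A and LV B and 67.6 and 41.5 in RV A and RV B, and the ventricles overlap. The next peak, chr8:77988036-77988888 (22.4), lies between Ednra, the endothelin receptor A, 264083 bp away, and Ttc29, 224747 bp away. Its 4 libraries were within 61.5 to 70.0 normalized reads and thus nearly level.

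A pair of the 15 lies between Tbx20, a T-box factor required for ventricle growth, and Herpud2, a gene of the endoplasmic reticulum. The first, chr9:24956360-24957104 (fold 20.2), is 182431 bp from Tbx20 and 151392 bp from Herpud2. The second, chr9:24973960-24975280 (17.1), starts at the promoter of E130101E03Rik printed above and is 200065 bp from Tbx20. It held the most reads of the 15, with 197 and 98.2 normalized reads in LV and 134 and 128 in RV, and the RV values fall between the LV values. Tbx20 itself is the nearest gene of 2 further members, of which chr9:24888210-24888956 had a fold enrichment of 14.6 at 114134 bp.

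Of the others among the 15, Trib2, a pseudokinase (20.2), Nyap2, a neuronal adaptor of PI3 kinase (19.8, with Irs1 on the other side), and Gadd45g, a growth arrest protein (19.3), follow in order. Ttll7, a tubulin polyglutamylase (18.8), Gfra2, a receptor of GDNF family ligands (18.4), Mn1, a transcriptional coactivator (18.04), and Castor2 (17.6, with Auts2 on the other side) come next. Lrig2, a membrane protein of receptor signalling (17.0), Parp11, an ADP-ribosyltransferase (17.0), Cd83 (16.8) and Hddc2 (16.7) complete the list. The Parp11 peak is 159576 bp from Ccnd2, the cyclin D2 gene, the Cd83 peak 482186 bp from Jarid2, and the Hddc2 peak 386540 bp from Hey2, a repressor downstream of Notch that keeps compact identity. LV and RV libraries did not overlap at 5 of the 15, with 3 higher in RV (Trib2, Gfra2 and Parp11) and 2 higher in LV (the first Herpud2 peak and Mn1). Over all regions 17.9% did not overlap with LV higher and 17.6% with RV higher, so 5 of 15 is near the background.

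**Figure D2:**
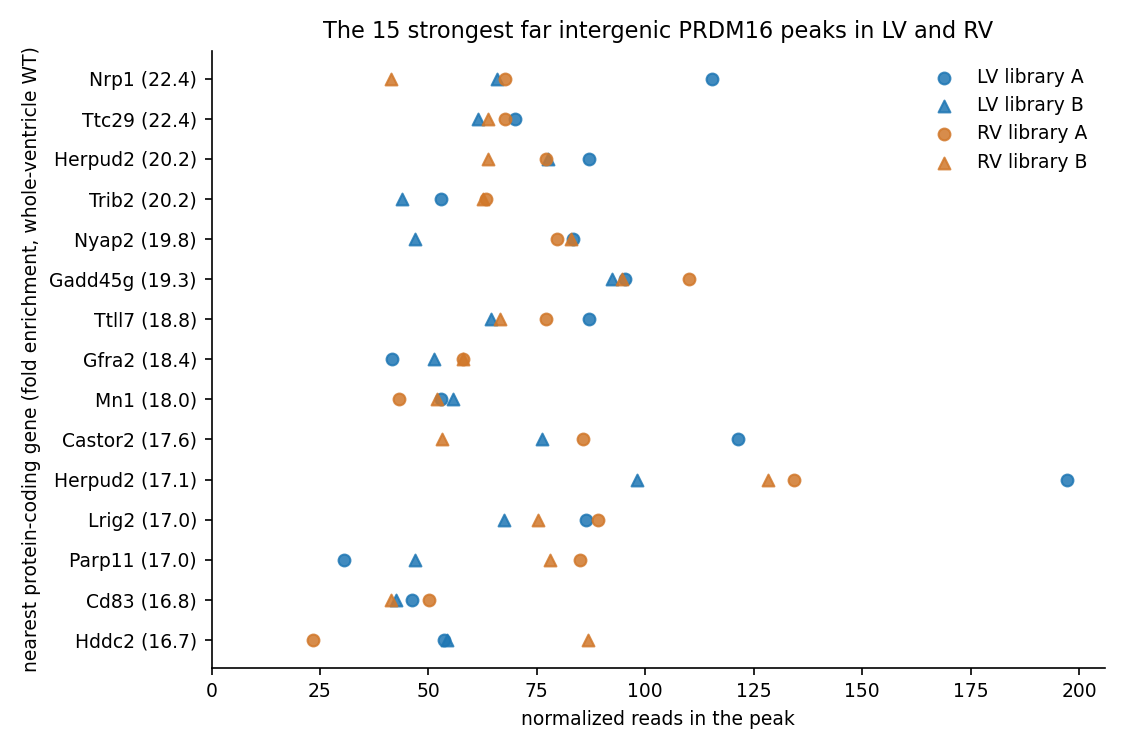
Normalized reads (horizontal) of the 2 LV libraries (blue) and 2 RV libraries (orange) in each of the 15 far intergenic PRDM16 peaks of highest fold enrichment, named by the nearest gene with the fold enrichment in brackets. At Parp11 both RV libraries (84.9 and 78.1) lie above both LV libraries (30.5 and 46.9), while at Ttc29 all 4 fall between 61.5 and 70.0.

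By number of members, 1224 genes of 21887 were the nearest gene of at least 1, with 641 genes at exactly 1 and 121 at 5 or more. Zfp608, a zinc-finger gene, led with 21 members at 79917 to 647817 bp, the strongest at a fold enrichment of 9.81. Adgrl2, an adhesion receptor of the latrophilin family, had 16 (strongest 11.4), Zmiz1 14 (9.63) and Pkdcc, a secreted kinase, 12 (10.6). Genes with 11 were Tox3, an HMG-box factor (13.4), Gadd45g (19.3), Rybp (11.3), Tbl1xr1, a corepressor subunit (8.05), Map3k7, the kinase TAK1 (5.99), and Csnk1g3, a casein kinase (6.66). Cyria, a RAC1 regulator (13.0), and Nfib, a nuclear factor I protein (8.79), had 10 each, as did Fgf9 and Cd83, whose summed fold enrichment was lower. On the other side of the strongest Cyria member, 386258 bp away, is Mycn, which drives proliferation of compact muscle.

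Many genes with far members also had a PRDM16 peak inside the gene. Of the 1224 nearest genes, 579 (47.3%, Wilson interval 44.5 to 50.1%) held a peak without knockout overlap in the gene body, against 943 of the 3521 other genes that border a far stretch (26.8%, 25.3 to 28.3%). The share was 42.0% at genes with 1 member and 61.2% (52.3 to 69.4%) at those with 5 or more. Median gene length was 48586.5 bp, 28769 bp, 47308 bp and 35070 bp in these 4 groups, and its part in the difference was not tested.

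Members often came in runs, in which each summit lay within 25000 bp of the next. Runs of 2 or more numbered 447 and held 1129 members (42.7%), 19 runs had 5 or more, and 1512 members stood alone. Median fold enrichment was 4.30 in runs and 4.17 alone. The largest run, between Magi3, a membrane scaffold, and Lrig2, packed 10 members into 66690 bp, from chr3:104318833-104319154 to chr3:104385505-104385970. Its strongest member, at 53.5 kb from the first summit, had a fold enrichment of 17.0, while the other 9 ranged from 3.18 to 5.18.

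The other long runs had the same shape, with 1 strong peak among weaker ones, or were more even. Between Cyria and Mycn 7 members spanned 40897 bp, with 8.05 near the start and a strongest value of 13.0 at the other end. That strongest member lay 168870 bp from Cyria and 386258 bp from Mycn. Between Disc1, a scaffold of neuronal development, and Sipa1l2, 7 members spanned 37051 bp with a strongest value of 12.0. Between Phlda1 and Krr1 7 members spanned 36606 bp and the strongest, 8.002, stood first. Of the runs with 6 members, the one of highest summed fold enrichment lay between Gm30733 and Prex1, a RAC exchange factor. It spanned 34461 bp with values from 4.69 to 9.28.

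**Figure D3:**
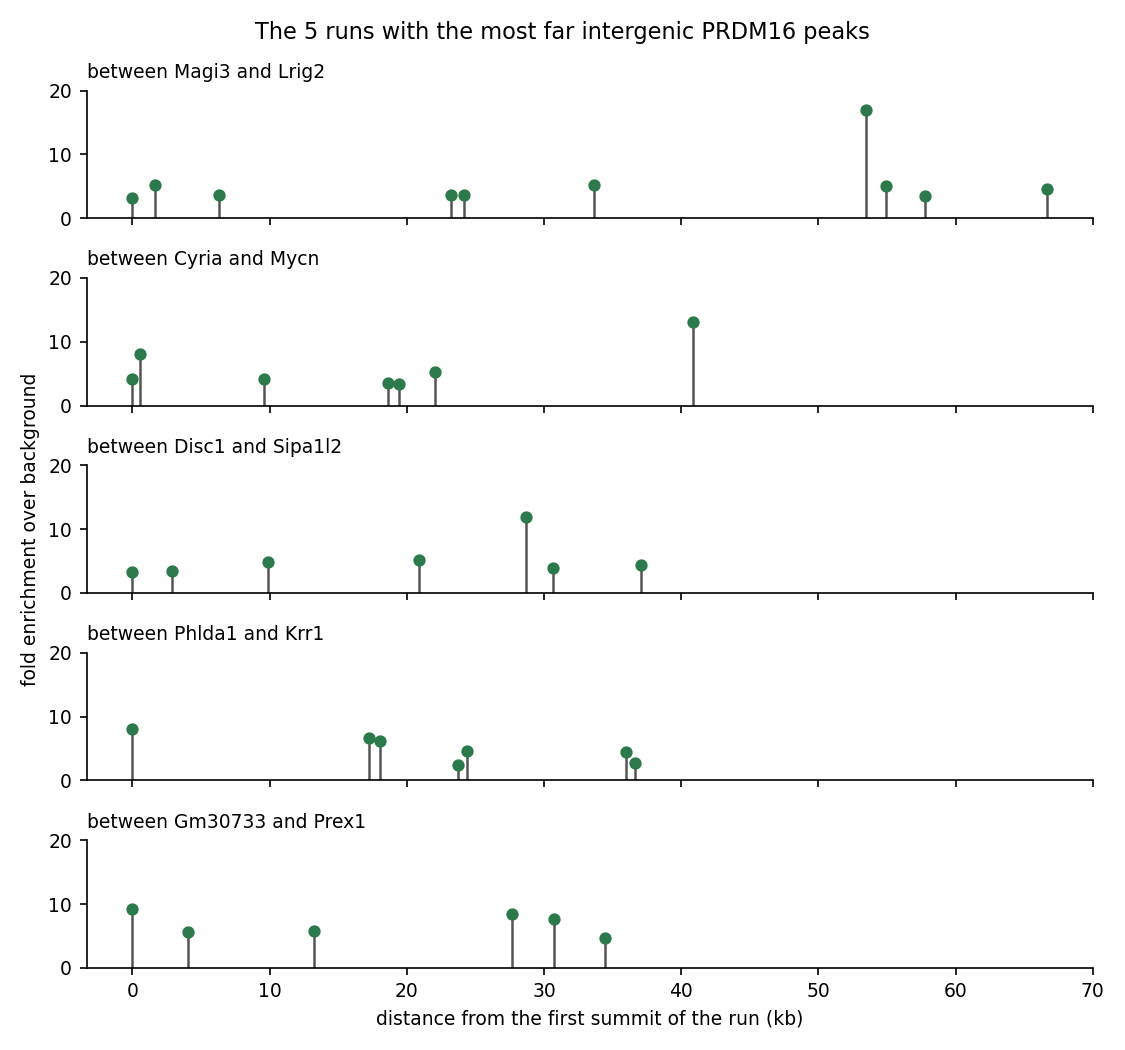
Fold enrichment (vertical) of each far intergenic PRDM16 peak in 5 of the runs with the most members (the fifth is 1 of several with 6 members), by distance from the first summit of the run in kb (horizontal). The run between Magi3 and Lrig2 holds 10 peaks, of which the one at 53.5 kb reaches 17.0.

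Read by function, cardiac regulators had more members per length of far sequence than the average gene, but so did most of the 18 lists. Sarcomere genes (8.44 per Mb) and erythroid, immune and hepatocyte genes (3.04) were also above the value of all genes. Below that value were endothelial and endocardial genes (2.50), calcium handling and ion channel genes (1.01) and neuronal adhesion and synapse genes (0.865). Over all genes, 1224 of 4745 (25.8%) that border a far stretch or are nearest to a member had a member, at 2.63 members per Mb. Of 21 such genes among cardiac transcription factors 16 had a member, 49 members in all at 7.35 per Mb with a median fold enrichment of 4.72. The strongest belonged to Tbx20 (14.6), to Tbx3, a T-box repressor of the conduction system (13.46, 95176 bp away at chr5:119574917-119575673), and to Gata6, a zinc-finger factor of heart progenitors (8.69). Tbx3 had 7 members, Irx4, a ventricular homeobox factor, 6, Hand2 and Gata6 5 each, and Myocd, the coactivator of smooth and heart muscle genes, 4. These densities are counts over a map and carry no test, and genes with much regulatory sequence around them were not set apart.

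The list of compact layer genes was among the densest, but it was chosen with earlier results of these data known. It borders only 1.34 Mb of far sequence, and Hey2 counts in the Notch list as well. Of 10 genes 8 had a member, with 17 members at 12.7 per Mb. The strongest were at Tbx20 (14.6), at Hey2 (12.2, chr10:31052816-31053853, 210670 bp away) and at Fstl4, a follistatin-like gene (10.4, 122338 bp away). Mycn had 3 members with a highest value of 5.57, and Ccnd2 had 2, at 4.97 and 4.06. In the authors' deposited table, 11 of the 17 were higher in LV and 6 in RV, against 1258 of all 2641 members and 8829 of all 17587 regions higher in LV. The 17 share the same libraries, and these counts carry no test.

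Genes of the trabecular layer and of ventricle identity shared the Iroquois homeobox genes. In the trabecular list 6 of 10 genes had 19 members (6.75 per Mb), with the strongest at Irx2 (15.2, chr13:72370933-72372201), Irx3 (11.8) and Irx1 (10.2). Irx1 had 7 members, Irx3 5 and Irx2 4, and the stretch between Irx1 and Irx2 holds the pair of peaks of highest value in both lists. Ventricle identity genes had 26 members at 8 of 12 genes (5.62 per Mb), among them Mef2c, a MADS-box factor, 392338 bp from its strongest member (7.66). In the authors' deposited table, 14 of the 19 trabecular members and 16 of the 26 ventricle identity members were higher in LV, against 1258 of all 2641 members.

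Structural genes of muscle had few far members in number, though in the sarcomere list they lay in little far sequence. That list had 7 members at 3 of 6 bordering genes (8.44 per Mb), none above a fold enrichment of 4.50: Ankrd1, a titin-associated protein with 5 of the 7 (strongest 4.50), Nebl, a thin filament protein (3.88), and Tpm1, a tropomyosin (2.58). Calcium handling and ion channel genes had 4 members at 3 of 10 (1.01 per Mb), with the strongest at Ryr2, the calcium release channel (9.57), Kcnj2, an inward rectifier potassium channel (9.52), and Kcnd2, another potassium channel (4.25).

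Signalling genes were represented by ligands, receptors and inhibitors. TGF-beta and BMP genes had 29 members at 8 of 16 (6.67 per Mb): Tgfbr3, the betaglycan co-receptor (15.7), Tgfb2, a ligand (9.39, 6 members), and Acvr2a, an activin receptor (7.24, 6 members). Notch genes had 16 at 5 of 8 (12.0 per Mb): Hey2, a target (12.2), Jag1, a ligand (6.26, 6 members), and Maml3, a coactivator (5.79). Wnt genes had 10 at 5 of 16 (3.98 per Mb): Fzd8, a receptor (7.27, 6 members), and the inhibitors Dkk2 (4.65) and Sfrp1 (4.46). Growth factor ligands had 24 at 7 of 19 (5.90 per Mb): Cxcl12, a chemokine of coronary and progenitor cells (14.8, 7 members), Fgf9, an epicardial and endocardial mitogen of the compact layer (9.82, 10 members), and Fgf14 (5.43).

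Developmental factors outside the heart lists made up the largest group. Homeobox and other developmental factors had 77 members at 27 of 47 genes (3.78 per Mb), with Id2, an inhibitor of helix-loop-helix factors (11.2), Klf12 (10.2) and Sall1 (9.47) on top. Forkhead and SOX genes had 38 at 10 of 25 (5.07 per Mb): Sox11 and Sox2 at 7.26 each and Foxq1 at 6.49. Axon guidance genes had 43 at 16 of 23, near the average density (2.72 per Mb), with Nrp1 (22.4), Epha4, an ephrin receptor (10.1), and Sema3a, a semaphorin (9.54).

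Neuronal adhesion and synapse genes border very long stretches, and their density was the lowest of the 18 lists. They had 56 members at 25 of 51 genes but 0.865 per Mb, among them strong peaks at Cntn3, a contactin (15.9), Slitrk5 (13.0) and Ptprd, a receptor phosphatase (11.3). Lists of other cells of the tissue were small. Endothelial and endocardial genes had 5 members at 2.50 per Mb (Cdh5 6.74 and Kdr 4.75). Those of epicardium, fibroblasts and smooth muscle had 6 at 4.73 per Mb (Tbx18 7.54 and Aldh1a2 4.25). Erythroid, immune and hepatocyte genes had 6 at 3.04 per Mb (Ptprc 4.55 and Apob 4.2). Brown fat and fatty acid oxidation genes, the program PRDM16 is known for, had 4 at 4.06 per Mb (Cebpb 6.33, Ppargc1a 4.63 and Dio2 4.46).

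**Figure D4:**
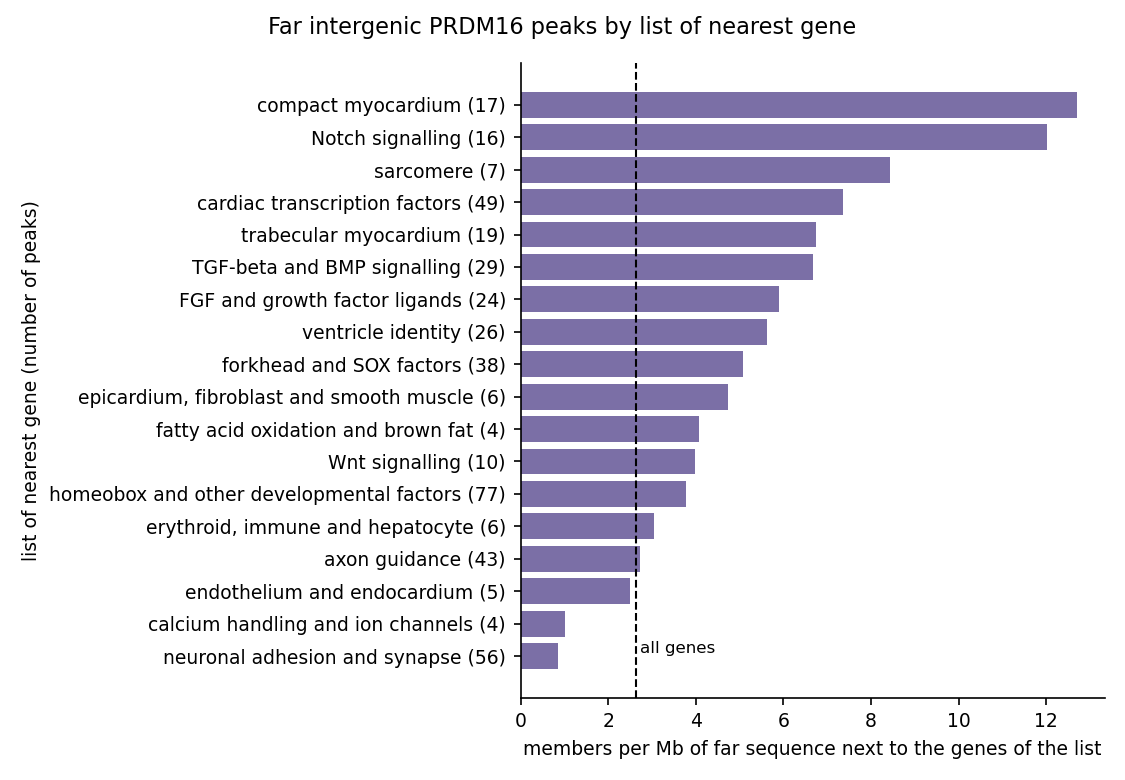
Far intergenic PRDM16 peaks per Mb of far sequence next to the genes of each of 18 lists (bars), with the number of peaks in brackets and a dashed line for all genes (2.63). The bars for compact myocardium (12.7) and Notch signalling (12.0) are the longest and that for neuronal adhesion and synapse (0.865) the shortest. Hey2 counts in both of the longest bars, and the lists were chosen with earlier results of these data known.

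Far from protein-coding genes does not mean far from any gene. Of the members, 628 (23.8%, Wilson interval 22.2 to 25.4%) had their summit inside a noncoding gene, mostly lncRNAs (607 members in 428 genes), and such genes cover 12.1% of the far sequence. A930011G23Rik held 9, 6030407O03Rik and Zmiz1os1 7 each and Mir100hg 6. The strongest within lncRNAs of known function were in Ftx, a regulator of X inactivation (11.9, chrX:103563270-103564041), and in Pvt1, the lncRNA next to Myc (10.7). Tbx3os1 (4.17), an antisense neighbour of Tbx3, and Irx3os (3.70), one of Irx3, held 1 each.

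Host genes of muscle and developmental microRNAs were among them. Mir1a-1hg, the host of the muscle microRNA miR-1, lies between Gata5 and Slco4a1 and held 4 members, with fold enrichments of 5.45, 5.41, 3.39 and 2.97. Mir100hg, the host of miR-100, let-7a-2 and miR-125b-1, held 6, from 3.41 to 4.97. Mature sequences of these hosts from RefSeq (GRCm38.p6) are given 5′ to 3′ with the seed, bases 2 to 8, in capitals, and they share no seed. For miR-1a-1 this is the 5p arm and not the 3p arm known as the muscle microRNA.
mmu-miR-1a-1-5p: aCAUACUUcuuuauaugcccaua
mmu-miR-100-5p: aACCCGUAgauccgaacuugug
mmu-miR-125b-5p: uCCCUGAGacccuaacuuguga

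The genomic bases of miR-125b-5p lie 923 bp from the member chr9:41580836-41581017, those of miR-1a-1-5p 4143 bp from chr2:180393222-180393690, and those of miR-100-5p 48153 bp from chr9:41579611-41580126. Mir802 has its hairpin 28 bp from a member of fold enrichment 4.10, the shortest distance of any microRNA hairpin in the table to a member.

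A small share of the far peaks was also called in the knockout. Of 2740 WT peaks that met the distance rule, 99 overlapped a knockout peak (3.61%) and were left out, against 98 other WT peaks (0.660%). At the 99, median fold enrichment was 1.79 in WT and 5.74 in the knockout, and 39 of them lay together at the start of chromosome 9, between 3000559 and 3037906. The 5 strongest were nearest to Arid1b (32.9 in WT and 32.1 in the knockout), Gm8882 (19.7 and 35.1), Bcl11a (18.9 and 19.2), Ndst4 (14.2 and 17.996) and Nxph1 (13.55 and 18.3). Arid1b at 32.9 would have been the strongest far peak, above the 22.4 of Nrp1. The knockout is 1 library, and no test of WT against knockout could be made.

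LV against RV asked whether PRDM16 occupied the same far sites in both ventricles. With all 4 libraries and a pseudocount of 1, a peak near Cxcl12 was the only member that passed adjustment in limma, and which members passed changed with the setting. By the adjusted p of the authors' deposited table, 0 of 2641 members and 0 (0%) of all 17587 regions were below 0.05. At an unadjusted p below 0.05 in the authors' deposited table, there were 17 members with more signal in LV, 0.644% of members against 0.341% of all regions. With more signal in RV in the authors' deposited table there were 9, 0.341% of members against 0.142% of all regions. limma with Benjamini-Hochberg adjustment over all regions called 1 member, against 0.0284% of all regions, and at an unadjusted p below 0.05 it gave 111 with more signal in LV (4.203% of members against 3.13% of all regions) and 112 with more in RV (4.24% against 3.18%). Both libraries of a ventricle lay above both of the other for 475 members in LV (17.99% against 17.9% of all regions) and 538 in RV (20.4% against 17.6%). In the authors' deposited table the median log2 RV over LV of the members was 0.035, against -0.0028 over all regions. There 1383 members were higher in RV, 52.4% of members against 49.8% of all regions.

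The called member, chr6:117275855-117276168, lies 94572 bp from Cxcl12 and had a fold enrichment of 5.85 in whole ventricles. It held 46 reads in LV A, 8 in LV B, 1 in RV A and 0 in RV B, so that LV was higher in every library. Of its 55 reads 1.82% (exact binomial interval 0.046 to 9.72%) came from RV, which gave 51.6% of all reads in WT peaks. The limma difference, log2 RV minus LV of normalized reads plus 1, was -3.95 (SE 0.657, adjusted p = 0.0101, n = 2 pools per ventricle). The call was lost in 6 alternatives while the difference stayed negative. Without RV library A it was -4.40 (limma adjusted p = 0.981), without RV library B -3.50 (limma adjusted p = 0.992) and without LV library A -3.22 (limma adjusted p = 0.0895). At a pseudocount of 0.1 it was -6.02 (limma adjusted p = 0.280), and at an unchanged -3.95 the limma adjusted p was 0.400 with a mean of at least 8 reads and 0.652 without the trend. At a pseudocount of 5 the Mcph1 and Rchy1 members described below passed beside Cxcl12, each with a limma adjusted p of 0.0248. The number of members called moved as well, to 17 without LV library A, 6 without LV library B and 0 without either RV library.

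The other members next to Cxcl12 did not all differ that way. The strongest of the 7 members, chr6:117251291-117251928 (fold 14.8), held 45, 25, 46 and 47 reads in LV A, LV B, RV A and RV B and a limma difference of 0.27 (SE 0.316). The next member beyond the called one, chr6:117279703-117280444 (9.06), held 73, 27, 31 and 22 reads (-0.93, SE 0.326), and chr6:117327411-117327756 (5.19) held 10, 8, 29 and 19 (1.12, SE 0.391). Within a single stretch the sites thus pointed in different directions, and the latter differences did not pass adjustment.

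On the LV side the next members by p in the authors' deposited table were near Mcph1, Kbtbd8, Gm815 and Irx2, at unadjusted p of 0.00225, 0.0123, 0.0124 and 0.0153. Mcph1 is a protein of the DNA damage response and Kbtbd8 an adaptor of a ubiquitin ligase. The Mcph1 peak had 67.0 and 49.8 normalized reads in LV and 19.1 and 21.2 in RV (limma -1.48, SE 0.322, adjusted p = 0.102). The Irx2 peak, chr13:72419355-72420035 (fold 12.1), had 40.2 and 39.6 in LV and 17.3 and 13.505 in RV (-1.33, SE 0.334, adjusted p = 0.274). At both of these the LV libraries lie above the RV libraries, and at Irx2 the LV libraries are close together. The stronger Irx2 peak, chr13:72370933-72372201, had 52.8 and 48.3 normalized reads in LV and 51.1 and 40.5 in RV. Kbtbd8 stood at -1.26 (SE 0.322) and Gm815 at -2.39 (SE 0.631) with 3 of its 28 reads in RV (10.7%, exact binomial interval 2.27 to 28.2%).

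On the RV side the authors' deposited table put Rchy1, Parp11, Tbx19, Rybp and Slitrk5 first, with unadjusted p from 0.00628 to 0.0242. The peak near Rchy1, a ubiquitin ligase, had 4.47 and 2.93 normalized reads in LV and 21.7 and 18.3 in RV (limma 2.17, SE 0.462, adjusted p = 0.0876). The Parp11 peak, chr6:127311290-127312162, is the strongest of the 10 named for LV against RV at a fold enrichment of 17.0, and its difference was 1.09 (SE 0.322, adjusted p = 0.542). Tbx19, a T-box factor, had a difference of 1.34, Rybp 1.42 and Slitrk5 1.435. At these 5 both RV libraries were above both LV libraries, and none passed limma's adjustment at a pseudocount of 1 with all 4 libraries.

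**Figure D5:**
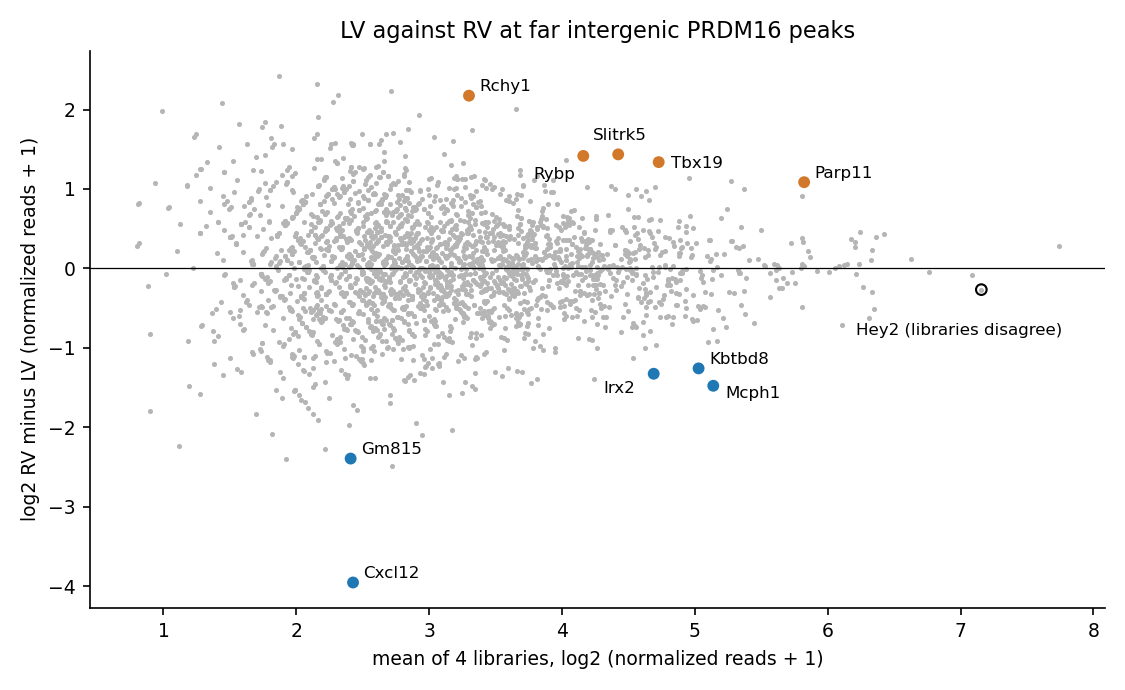
Difference between ventricles, log2 RV minus LV of normalized reads plus 1 (vertical), against the mean over the 4 libraries on the same log2 scale (horizontal) for each far intergenic PRDM16 peak, with the 5 named members of smallest p on the LV side in blue and on the RV side in orange. Cxcl12 at -3.95 stands lowest, and the open circle marks the Hey2 peak whose libraries disagree within each ventricle.

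At a Hey2 member the libraries of each ventricle disagreed. The peak chr10:31034760-31035467 (fold 9.39, 192325 bp from Hey2, inside the lncRNA Gm30676) held 840 reads in LV A and 744 in RV B but 26 in LV B and 26 in RV A. The libraries of each ventricle thus differed by a log2 of at least 4.002 while the ventricles did not (limma -0.27, SE 0.880). The stronger Hey2 member, chr10:31052816-31053853, held 108, 27, 44 and 67 reads in LV A, LV B, RV A and RV B and shows no such gap. A difference of at least 8-fold within a ventricle at 50 reads or more occurred at 3 of 17587 regions, and the other two were the peak in Hey2 itself (533, 22, 24 and 515 reads) and the peak in Mycn (812, 25, 34 and 79). The cause of these read piles was not tested. The Hey2 member held the most reads of all members when the 4 libraries are summed, and without it the RV minus LV share of reads described next was 0.380 percentage points.

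Of the reads in all WT peaks, the share that fell in far intergenic peaks differed between ventricles by less than the LV libraries differed from each other. It was 11.7% in LV A (95% Wilson interval 11.6 to 11.9%), 10.2% in LV B (10.0 to 10.3%), 11.4% in RV A (11.3 to 11.5%) and 11.3% in RV B (11.2 to 11.4%). The LV libraries differed by more than these intervals span. The means were 10.96% ± 1.11 (SD, n = 2) in LV and 11.3% ± 0.0929 (SD, n = 2) in RV, a difference of 0.389 percentage points (exact permutation test over libraries, two-sided, p = 1, where 2 against 2 libraries allow no p below 2 of 6 splits). LV B stood lowest, and it was also the library with the highest share of reads in peaks that overlap a knockout peak (30.6%), whose part in this was not tested. Over peaks without knockout overlap, a choice made after the data were seen, the shares were 14.50, 14.64, 14.26 and 15.25%. There the RV minus LV difference of 0.186 percentage points was larger than the gap between the LV libraries. It was smaller than the gap between the RV libraries.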

How the data were processed

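PRDM16 ChIP-seq was carried out on pooled E13.5 mouse ventricles. The submitters' processing notes name the builds mm10 and GRCm38 and, as tools, DESeq2, HOMER, MACS2 2.1.1.20160309 and BWA 0.7.12-r1039. The deposited peak lists give per peak a score, a fold enrichment ratio and a −log10 q value, with no value per library. No source used here says whether the WT list pools its 2 libraries. The authors' deposited table gives a normalized read signal per ventricle, log2 values and p-values for 17587 WT peaks.

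The signal equals 0.5 plus the mean of 2 libraries' whole reads times a factor per library. Reads were recovered with 1 solution at 100% of regions (tolerance 1e-07), and the procedure was tested on simulated data. The libraries A and B carry no replicate number. limma 3.58.1 in R 4.3.3 was run on log2(normalized reads + 1) with a trend over all 17587 regions, with Benjamini-Hochberg adjustment. On simulated data for LV against RV (17587 regions) it called 72 of 100 regions changed 4-fold and 100 of 100 changed 8-fold, with 1 false call. The changed regions were drawn only from those with a mean of at least 8 reads, always with RV raised and with a fixed spread. Detection at members with fewer reads was not covered. The replicates are pools, so p-values measure the spread between pools.

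Distances run from the summit to the body of the nearest protein-coding gene of the RefSeq table of GRCm38.p6. Named were the 15 strongest members, the 12 genes with most members, up to 3 genes per list, the 5 members of smallest authors' p per ventricle and any called by limma, the 5 farthest, 3 on each side of the distance rule, the 5 largest runs and the 5 strongest far peaks shared with the knockout. Other genes and noncoding RNAs in the text were chosen after their values were seen. The members and lists were chosen with earlier results of these data known. Sequence of the peaks themselves was not analysed here.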

Additional observations from a re-analysis of the deposited data

How the results depend on the processing

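The number of far intergenic peaks followed the rule. It was 1674 at a distance above 100000 bp, 654 when any annotated gene was counted and 830 where fold enrichment had to reach 5, with 3647 above 25000 bp. Other settings (−log10 q of at least 5, the nearer edge, 3 treatments of knockout overlap) gave 1880 to 2740. limma called 0 members at a pseudocount of 0.1, 3 at a pseudocount of 5, 0 with a mean of at least 8 reads and 0 without the trend. Leaving out 1 library gave 0 to 17 calls, where the lone library left is assumed to vary like the other ventricle. Median-of-ratios factors and equal totals gave 1 each. The Cxcl12 difference ran from -6.02 to -2.24 with limma adjusted p from 0.000145 to 0.992. Over the 10 members named for LV against RV, 85 of 99 alternative values stayed on the same side of the limma threshold, 6 lost it (all Cxcl12), 8 gained it and 0 changed sign. The difference in the share of reads ran from 0.186 to 0.541 percentage points, the lowest over peaks without knockout overlap, an alternative chosen after seeing the data. The cause of these changes was not tested. A median of 5 to 9 reads per member and library limits what can be seen. No paired analysis was possible because the 2 libraries recovered per ventricle carry no replicate number.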

Other observations

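Among the 121 genes nearest to 5 or more members, 7 had every member higher in RV in the authors' deposited table, namely Cadm1 with 7, Rps24 with 6, and Gsdmc, Efnb1, Sox2, Meis1 and Foxa2 with 5 each. Marcks with 6 and Castor2 with 5 had every member higher in LV in the authors' deposited table. These genes were picked for their signs, and over all members 1383 of 2641 were higher in RV. Cadm1 is a cell adhesion molecule, Meis1 a homeobox factor that restrains heart muscle proliferation, and Marcks a substrate of protein kinase C. Members of 1 gene share their libraries, and none of these members was called by limma, which called 1 of all 2641 members.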
